A study of Mus musculus with 14 samples.

Results

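The Cd8-positive T cells of 1 normal mouse liver were 52 barcodes of a single-cell library, chosen by their measured Cd3, Cd8 and lineage marker counts. A barcode is the tag of 1 droplet and is called a cell here. Members had at least 200 detected genes, at most 20% mitochondrial UMIs (unique molecular identifiers, each standing for 1 captured RNA molecule), at least 2 summed UMIs of Cd3d, Cd3e and Cd3g, and at least 1 UMI of Cd8a or Cd8b1. They also had at most 1 summed UMI of Cd79a, Clec4f, Cd5l, Stab2 and Dcn, markers of B cells, Kupffer cells, sinusoidal endothelium and stellate or other mesenchymal cells. Of 5063 barcodes 4808 passed the gene and mitochondrial filters. The same gates without a demand on Cd8 took 284 T cells, so members were 18.3% of T cells (exact binomial 95% interval 13.99 to 23.3). The other 232 T cells had no Cd8a or Cd8b1 UMI and are the comparison set.

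CD8 is the co-receptor that binds MHC class I beside the T cell receptor. Conventional cytotoxic T cells carry a dimer of an alpha and a beta chain, encoded by Cd8a and Cd8b1, while alpha-chain homodimers are also found on some unconventional T cells. Naive and central memory cells recirculate between blood and lymph nodes with the chemokine receptor CCR7, whereas effector and memory cells make granzymes and the chemokines CCL3, CCL4 and CCL5, and the liver sinusoids are known to hold both kinds.

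The single-cell library came from the perfused and digested liver of C57BL/6 mouse origin with no liver damage or treatment, and no sort is described for it. The study also holds 13 bulk libraries without sorted T cells. These are quiescent stellate cells (n = 4; LratCre+, TdTom+ in C57BL/6J, sorted for vitamin A and for TdTom, the reporter switched on by Lrat-driven Cre), whole liver of the same strain label (n = 3), and Balbc stellate cells cultured for 24 h without (n = 3) or with 10 µM UDP-glucose (n = 3). With 1 single-cell library no difference between cells could be tested, and cells are not replicates. Intervals on UMI sums (exact Poisson), ratios (exact conditional) and shares (exact binomial) are at 95% and reflect counting error alone.

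The library held 12101368 UMIs, with 968 to 47577 and a median of 1983 per barcode. Members were deeper than the median barcode, with a median of 2853.5 UMIs and 1060.5 genes per cell, against 2100.5 UMIs and 972 genes in T cells without Cd8. Over all members 159533 UMIs were counted, so a gene without a UMI there was below 18.8 CPM (counts per 1000000 UMIs of the cells), the level of 3 counts. The corresponding limit was 5.42 CPM in T cells without Cd8.

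The genes of the rule are given as a description only, since they chose the cells. Members held 130 Cd3d UMIs in 46 cells, 108 Cd3e UMIs in 37 cells and 173 Cd3g UMIs in 49 cells, and the summed Cd3 count per cell ran from 2 to 22 with a median of 7. Cd8a, at chromosome 6 from 71373427 to 71379173 on the plus strand of GRCm38, gave 65 UMIs in 36 cells. Cd8b1, its neighbour at 71322788 to 71337494 on the same strand, gave 127 UMIs in 39 cells. Both chains were seen in 23 cells, Cd8b1 alone in 16 and Cd8a alone in 13. At the Cd8 limit 11 members had exactly 1 Cd8 UMI and 41 had at least 2. At the Cd3 limit 3 members had exactly 2 UMIs, and 2 barcodes with Cd8 were left out with 1. At the lineage limit 20 members had 1 such UMI, and of 16 barcodes that met the Cd3 and Cd8 limits and went over this one 5 had 2. Another 24 barcodes had a Cd8 UMI and no Cd3 UMI, and 11 of these held Siglech, a marker of plasmacytoid dendritic cells. A gate on so few UMIs is a range of cells and not a sharp type.

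Genes that the rule did not use went with the T cell label in all but a few cells. A UMI of Trac, Trbc1 or Trbc2, the constant regions of the alpha-beta T cell receptor, was present in 50 of 52 members. It was also present in 223 of 232 T cells without Cd8 and in 19 of 29 NK-gated cells (defined below), so it does not single out members. Trbc2 was seen in 50 cells (225 UMIs) and Trac in 33 cells (107 UMIs). B2m, the light chain of MHC class I, was seen in all 52 members but does not bear on the label. A UMI of the class I presentation list, which holds B2m, was seen in 100% of NK-, B- and endothelial-gated cells too. Cd4, the co-receptor of helper T cells, had a UMI in 1 of 52 members and in 22 of 232 T cells without Cd8.

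In 1 member that went against its label 91.7% of UMIs were haemoglobin, with 211 genes, 2 Cd3 UMIs and no alpha-beta receptor constant UMI. Another had 18.5% haemoglobin UMIs. The other member without an alpha-beta constant UMI had 22 Cd3 UMIs, 1 Cd8a UMI, no Cd8b1 UMI and 6 Fcer1g UMIs. It also held a UMI of Trdc, the delta chain constant region, and is among the Cd8a-alone cells below. No member had over 5% hepatocyte-marker UMIs, against 4 of the 232 T cells without Cd8. As UMI sums over the cells, hepatocyte markers stood at 2181 CPM in members and 5193 CPM in T cells without Cd8, MHC class II and myeloid markers at 589 and 1571 CPM, sinusoidal endothelial markers at 307 and 562 CPM, and NK markers at 527 and 1237 CPM. A single T cell without Cd8 held 42.4% of that set's hepatocyte UMIs and 1 held 44.4% of its MHC class II and myeloid UMIs. Without the top cell of each set the sums were 1368 and 3044 CPM for hepatocyte and 502 and 889 CPM for MHC class II and myeloid markers, and the medians per cell were 3 and 3 UMIs, and 2 and 1. Closer sums were found at 326 and 356 CPM for B cells, 125 and 181 CPM for Kupffer cells and 251 and 221 CPM for stellate cells. Erythroid markers, mainly haemoglobin genes, summed to 24879 and 17049 CPM, of which 1 cell held 85.0% in members and 61.3% in the other set. Without the top cell of each set they stood the other way, at 3830 and 6707 CPM. An NK marker was seen in 20 of 52 members and in 154 of 232 T cells without Cd8, but the NK receptor genes Klra4 and Klra8 had no UMI in either set. The NK markers Klrb1c, Klre1, Ncr1, Tyrobp and Fcer1g are also in the NK-type receptor list below, so the marker sum is no separate measure. The part of other cells' RNA in the differences below was not tested beyond the values without these cells.

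Against the other T cells, members had more RNA of recirculation genes, the short name used here for the naive and central memory list. They had less of helper, NK-type and residency genes. Higher sums of the chemokine RNAs Ccl3 and Ccl4 came from a few members. Of 2883 genes with at least 30 UMIs over both sets (rule genes left out), 63 were at least 2-fold higher in members (2.19%) and 296 at least 2-fold lower (10.3%), and the median ratio of all genes was -0.15 on the log2 scale. Leaving out the members and comparison cells with over 5% haemoglobin or hepatocyte UMIs gave 64 and 236. The other T cells held 553008 UMIs and members 159533. A gene seen mainly in the other T cells therefore reaches the 30-UMI limit at a lower CPM than one seen mainly in members. Counts of lower genes, here and in the lists below, carry this limit, as for Cd40lg and Bhlhe40.

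Of the 16 lists, the naive and central memory genes had the most on the high side, with 6 of 11 measured genes at least 2-fold higher, none lower, and a median log2 ratio of 1.06. Dapl1, a gene known from naive and memory T cells, stood at 182 CPM in members (29 UMIs in 12 cells) and 16.3 CPM in T cells without Cd8 (9 UMIs in 5 cells), a ratio of 11.2 (5.15 to 26.8). Ccr7, the receptor for lymph node entry, stood at 144 and 21.7 CPM, a ratio of 6.64 (3.17 to 14.7). Klf2, the transcription factor that drives expression of egress genes, was counted in 26 members and 50 other T cells and stood at 683 and 179 CPM, a ratio of 3.82 (2.88 to 5.06). S1pr1, the sphingosine-1-phosphate receptor used to leave tissue and a known Klf2 target, had a ratio of 3.66 (1.82 to 7.39). Tcf7, encoding the factor TCF1 of naive and memory cells, had a ratio of 2.81 (1.68 to 4.68). Lef1, its relative, had a ratio of 2.08 (1.15 to 3.67), and 1.73 without its top cell. Of Lef1 exon bases 13.7% lie in another gene model, and whether reads were counted by strand is not stated in the labels. Il7r, the interleukin-7 receptor, differed by less than 2-fold at 1.68. Outside the lists, Phf11b (4.62), Emb (3.47) and Arl4c (3.03) had their UMIs spread over 16, 18 and 31 members.

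Cytotoxic effector genes were split, with 3 of 12 at least 2-fold higher in members, 2 lower and a median log2 ratio of -0.08. Ccl4 and Ccl3, inflammatory chemokines that draw leukocytes, stood at 783 against 81.4 CPM and at 238 against 36.2 CPM. The ratios were 9.63 (6.80 to 13.9) for Ccl4 and 6.59 (3.74 to 11.9) for Ccl3. Few cells held this RNA. Of the 125 Ccl4 UMIs 3 members held 111, and without them the ratio was 1.14 (0.577 to 2.11). Of the 38 Ccl3 UMIs 3 members held 34, and without them Ccl3 stood below the other T cells, at a ratio of 0.732 (0.182 to 2.19). Ifng, encoding interferon gamma, had 14 UMIs in members and a ratio of 2.31 that became 1.18 without its top cell (25.9% of its exon bases lie in another gene model). Ccl5, a chemokine stored by memory cells, was the most abundant gene of the list at 12323 against 7291 CPM, a ratio of 1.69 (1.60 to 1.78). This sum was also unevenly held, with a median of 6 UMIs per member and 8 members at 100 or more. The share of cells went the other way, with a Ccl5 UMI in 67.3% of members and 81.9% of other T cells.

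Nkg7 and granzymes A and B differed little between the sets. Nkg7, a granule membrane protein, stood at 1542 CPM in members and 1579 CPM in T cells without Cd8. Granzyme A stood at 621 and 680 CPM and granzyme B at 382 and 449 CPM. Below the 30-UMI limit, Gzmk had 11 UMIs against 4, a ratio of 9.53 (2.82 to 41.0) that became 2.73 without its top cell, which held 72.7% of the member UMIs. Gzmm had 8 UMIs in 3 members against 1 (27.7, 3.72 to 1230.5), and Eomes, a transcription factor of effector and memory cells, 5 in 4 members against 1 (17.3, 1.94 to 820). On the lower side of the list, Id2, a regulator of effector and innate lymphocytes, stood at 633 against 1669 CPM, an inverse ratio of 2.64 (2.14 to 3.27). Xcl1, a chemokine of NK and T cells, had an inverse ratio of 2.90, and 18.7% of its exon bases overlap another gene model.

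Helper and regulatory genes were low in members, with 4 of 8 at least 2-fold lower, none higher and a median log2 ratio of -1.35. Cd40lg, the helper signal to B cells, had 1 UMI in members and 38 in 32 other T cells, an inverse ratio of 10.96 (1.85 to 444). Maf, a transcription factor of helper cells, had 7 UMIs against 135, an inverse ratio of 5.56 (2.63 to 14.1). It stood at 1819 CPM in endothelial-gated cells, against 43.9 and 244 CPM in members and other T cells, and sinusoidal endothelial markers were also lower in members (307 and 562 CPM), whose part in the Maf ratio was not tested. In the same endothelial-gated cells Cd40lg had no UMI, and Tnfrsf18 and Izumo1r stood at 2.52 and 0.505 CPM. Tnfrsf18 (GITR) had an inverse ratio of 4.09, where 27.2% of exon bases overlap another gene model, and Izumo1r (folate receptor 4) one of 3.75. Il4, a cytokine of helper and NKT cells that is in none of the lists, had 1 UMI against 34, an inverse ratio of 9.81 (1.65 to 399).

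NK-type receptor genes were also low, with 4 of 9 at least 2-fold lower, none higher and a median log2 ratio of -0.95. Klrb1c, encoding NK1.1, was seen in 5 members and 97 other T cells, with an inverse ratio of 4.84 (2.48 to 10.8), and 13.9% of its exon bases lie in another gene model. Klre1 (2.64), the adaptor Tyrobp (2.26) and Cd160 (2.12) were the other members of this list past 2-fold. Of 4 residency genes 2 were lower. Cxcr6, the receptor that keeps T and NKT cells in liver sinusoids, stood at 169 against 369 CPM, an inverse ratio of 2.18 (1.45 to 3.39), and Bhlhe40 had 2 UMIs against 36, an inverse ratio of 5.19. Of the memory and activation list Itga4 was higher (2.25, but a log2 ratio of -0.47 without the cells holding an excluded-lineage UMI) and Il2rb, the receptor chain shared by interleukins 2 and 15, lower (inverse ratio 2.47), with 14 of 16 genes within 2-fold.

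The ratios depended on which T cells stood opposite. The 22 comparison cells with a Cd4 UMI held only 59033 UMIs, and against them 36 genes were at least 2-fold higher in members and 45 lower. Klrb1c (log2 ratio -1.72), Cd40lg (-3.43) and Maf (-2.63) were still lower in members. Klre1 had 12 UMIs in members and 3 in these cells, a ratio of 1.48 (0.399 to 8.17), Tyrobp 23 and 5, a ratio of 1.70 (0.633 to 5.73), and the chemokine Xcl1 20 and 5, a ratio of 1.48 (0.539 to 5.05), so these 3 were no longer lower, on few counts. The recirculation ratios were also smaller. Dapl1 stood at a log2 ratio of 1.10 (3.48 against all T cells without Cd8), a ratio of 2.15 (0.821 to 7.10). Klf2 stood at a log2 ratio of 1.25 (1.93), a ratio of 2.37 (1.42 to 4.22). Ccr7 stood at a ratio of 2.84 (0.857 to 14.8), so the intervals of Dapl1 and Ccr7 included 1. Against the 135 comparison cells without a Klrb1c UMI, 34 genes were higher and 155 lower. Xcl1 was still lower in members at a log2 ratio of -1.13, a ratio of 0.455 (0.265 to 0.748). Klre1 stood at -0.75, a ratio of 0.596 (0.284 to 1.16), and Tyrobp at -0.41, a ratio of 0.755 (0.445 to 1.24). The intervals of Klre1 and Tyrobp included 1. Dapl1 stood at 2.64, Ccr7 at 1.89 and Klf2 at 1.33. The 5 members with a Klrb1c UMI were kept. Each ratio elsewhere is read against all 232 T cells without Cd8, of which 97 held Klrb1c and 22 held Cd4.

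Genes common to T cells differed little. Of 15 T cell core genes 12 were within 2-fold, with Trbc2 at 1410 against 1597 CPM and Thy1 at 765 against 863 CPM. Cd247, the zeta chain of the receptor complex, was higher at 2.06 (60.3% of its exon bases lie in another gene model, and its log2 ratio was -0.0054 against Cd4-carrying cells only, with 35 against 13 UMIs), and Zap70 and Cd6 were lower, at inverse ratios of 2.33 and 2.16. All 9 class I presentation genes were within 2-fold, B2m at 3404 against 3644 CPM. Of 11 interferon response genes Gbp2 alone passed 2-fold, at 2.55. Of 10 early response genes Jun and Dusp1 were lower, at inverse ratios of 2.19 and 2.74. The 4 measured gamma-delta genes, 5 cytokine receptors, 2 chemokine receptors and 2 cell cycle genes held none past 2-fold.

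Many of the widest gaps on the low side lay in genes of other cells or in genes with 1 or no member UMI. Tmem176b, known from myeloid cells and some T cells, had 1 UMI in members and 81 in the other T cells, an inverse ratio of 23.4 (4.08 to 934). Mmp9, Asb2, Zrsr2 and Runx1 each had 1 UMI in members against 52, 35, 32 and 32. After thinning each cell to 1000 UMIs, where a set without a UMI counts as 3, Tmem176b stood at a log2 ratio of -1.15 and Cd40lg at -0.15, and Asb2 and Zrsr2 turned to 0.30. S100a8, a neutrophil gene, had none against 125 and was at least 12.0-fold lower, but 96.0% of those UMIs came from 1 cell, without which no lower level could be given. Of the measured hepatocyte markers 5 of 7 and of the MHC class II and myeloid markers 5 of 7 were at least 2-fold lower in members, in the same direction as the marker sums above. Hist1h2ap, a replication-linked histone gene, was 4.07-fold higher with 176 UMIs in only 6 members, 28.6% of its exon bases lie in another gene model, and its log2 ratio was 0.12 without the cells holding at least 3 cell cycle UMIs and -3.48 without the cells holding an excluded-lineage UMI.

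**Figure D1:**
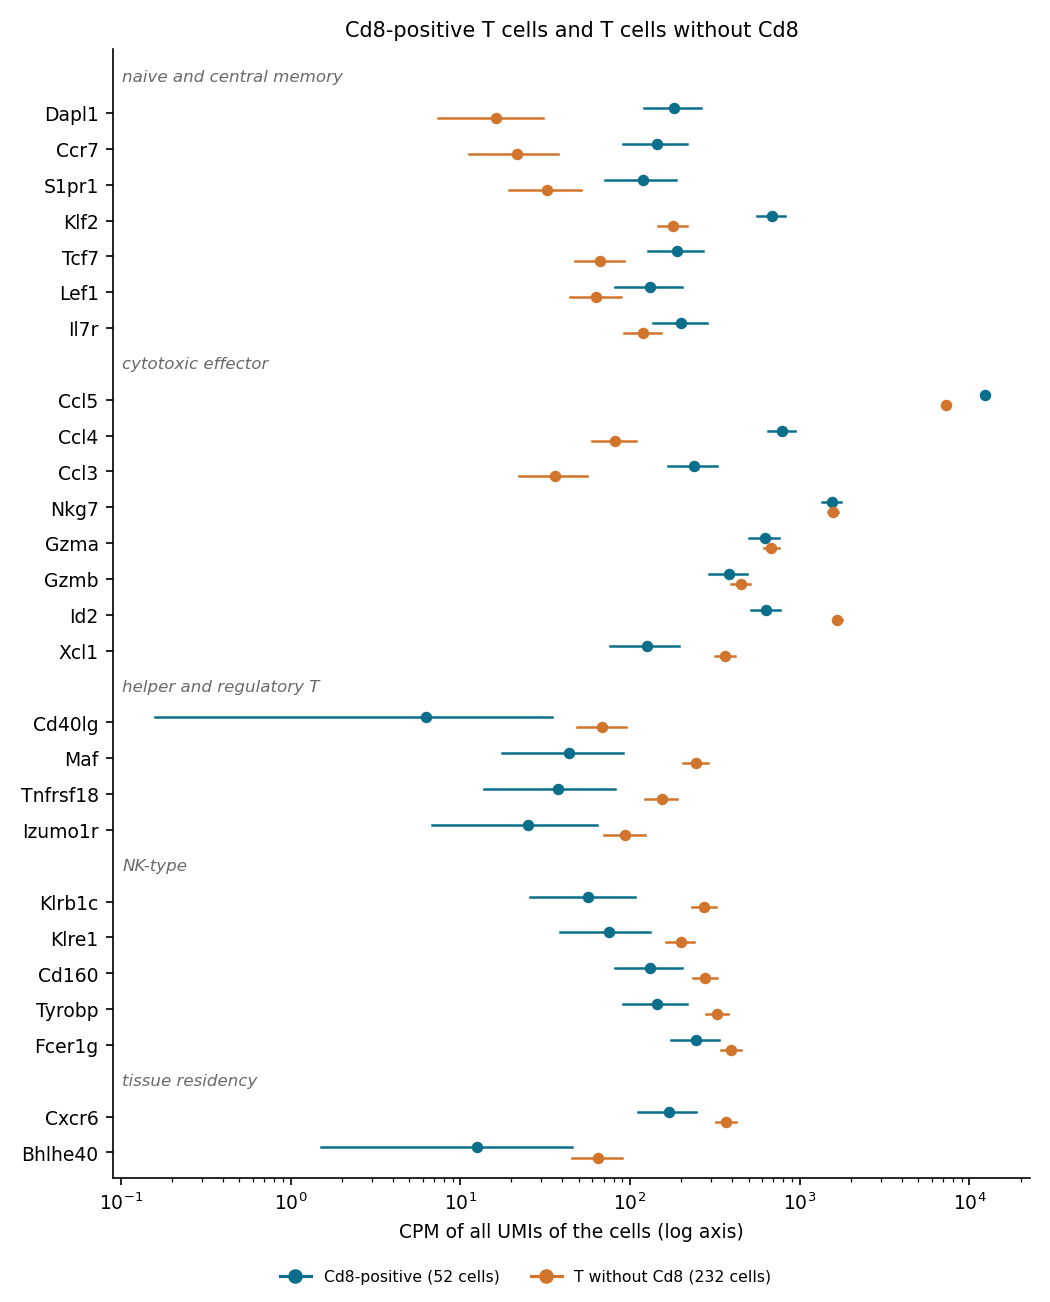
Level of named genes in Cd8-positive T cells (52 cells) and T cells without Cd8 (232 cells). The horizontal axis is CPM of all UMIs of the cells on a log scale, points are summed levels and lines exact Poisson 95% intervals, which cover counting error only. Dapl1, Ccr7 and Klf2 lie to the right in Cd8-positive cells (Klf2 at 683 against 179 CPM), Nkg7 and granzymes A and B overlap, and Cd40lg, Maf and Klrb1c lie to the left.

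Shares of cells with a UMI rise with depth, so they were also taken with every cell thinned to 1000 UMIs (51 members and 230 other T cells were deep enough). The levels in cells that should lack a gene gave the background from free RNA. NK-gated cells (29, no Cd3 UMI and at least 2 UMIs of Ncr1 and Klrb1c) had a median of 1861 UMIs, B-gated cells (266) 1503.5 and endothelial-gated cells (2669) 1925. Ccl5 was seen in 67.3% of members and 62.7% after thinning, in 77.8% of other T cells and 100% of NK-gated cells after thinning, and in 5.64% of endothelial-gated cells after thinning. Granzyme A or B was seen in 21.2% of members (15.7% thinned), 32.3% of other T cells (23.04%), 82.8% of NK-gated cells (75.9%) and 2.40% of endothelial-gated cells (1.21%). Members therefore stood below NK-gated cells and above the endothelial background for both.

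For the recirculation genes the B-gated cells are no background, since B cells also use CCR7. A UMI of Ccr7, Lef1 or Dapl1 was seen in 42.3% of members (22 of 52) and 23.5% after thinning. The shares were 14.2% and 5.22% in other T cells and 0.637% and 0.227% in endothelial-gated cells. These 3 genes are a part of their 15-gene list. A UMI of any gene of that list was seen in 90.4% of members, 84.5% of other T cells and 97.7% of endothelial-gated cells. The medians were 5, 2 and 5 UMIs per cell. Dapl1 alone was seen in 23.1% of members (9.80% thinned), 2.16% of other T cells (0.870%) and none of the 29 NK-gated or 266 B-gated cells. Klf2 is abundant in B and endothelial cells, with 87.2% and 66.0% of cells against 50% of members, 34.5% of NK-gated cells and 21.6% of other T cells. A UMI of Fcer1g or Tyrobp, signalling adaptors of NK and myeloid cells, was seen in 34.6% of members (17.6% thinned), 22.2% of B-gated cells (12.5%) and 38.9% of endothelial-gated cells (26.4%), so members lay between those sets.

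**Figure D2:**
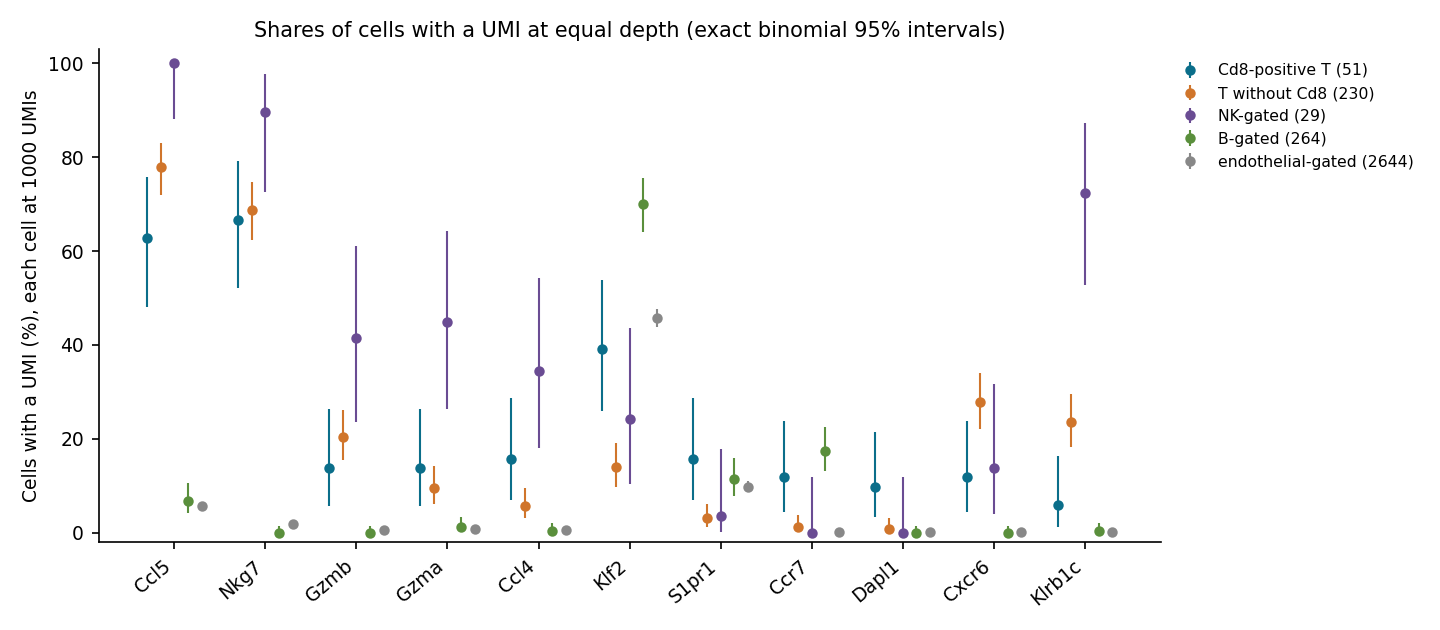
Share of cells with at least 1 UMI (vertical axis, percent) for 11 genes after thinning each cell to 1000 UMIs, in Cd8-positive T, T without Cd8, NK-gated, B-gated and endothelial-gated cells. Lines are exact binomial 95% intervals for counting error. Ccl5 runs from 62.7% in Cd8-positive T cells to 100% in NK-gated cells, and Klrb1c stands at 5.88%, 23.5% and 72.4% in Cd8-positive, other T and NK-gated cells.

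Ccl5 counts differed widely among members. Of the 52 cells 17 had no Ccl5 UMI, 3 had 1, 5 had 2 or 3 and 24 had at least 10, up to 253 UMIs in 1 cell. With the limit at 2 UMIs, 32 members were Ccl5-high (61.5%, 47.0 to 74.7; 47.1% after thinning) and 20 were Ccl5-low. The same limit took 77.2% of other T cells, all 29 NK-gated cells, 1.88% of B-gated and 1.76% of endothelial-gated cells. Median depth was 2599 UMIs in Ccl5-high and 2985.5 in Ccl5-low members, so by median UMIs the low cells were not the shallower ones. Other measures went the other way, with a median of 1107.5 genes in Ccl5-high and 991 in Ccl5-low members. The lowest depth was 1869 and 982 UMIs. A cell at the limit may fall on either side by counting alone, and the split is a range along 1 gene.

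Effector RNA lay on the high side and recirculation RNA on the low side of this split. Granzyme A or B was seen in 11 of 32 Ccl5-high and 0 of 20 Ccl5-low members. Ccl3 or Ccl4 was likewise seen in 11 of 32 and 0 of 20, and 7 cells held both kinds. A UMI of Ccr7, Lef1 or Dapl1 was seen in 6 of 32 Ccl5-high (18.8%) and 16 of 20 Ccl5-low members (80.0%), and in 3.12% and 57.9% after thinning. A UMI of any gene of the 15-gene naive and central memory list was seen in 90.6% of Ccl5-high and 90.0% of Ccl5-low members. The list summed to 1490 and 4362 CPM, so the sets differed in its level and not in this share. Of the Ccl5-high cells 17 held neither granzyme nor Ccl3 or Ccl4, and 4 members were neither Ccl5-high nor held Ccr7, Lef1 or Dapl1. In T cells without Cd8 a UMI of these 3 genes was seen in 12 of 53 Ccl5-low and 21 of 179 Ccl5-high cells.

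**Figure D3:**
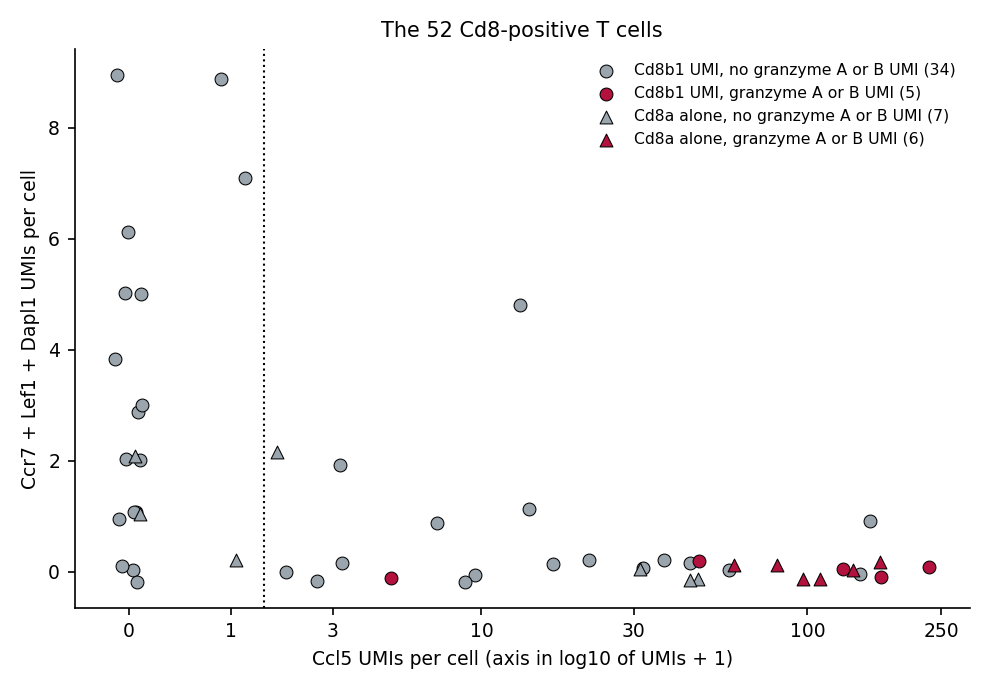
Each point is 1 of the 52 Cd8-positive T cells, placed by its Ccl5 UMIs (horizontal, log10 of UMIs plus 1) and its summed Ccr7, Lef1 and Dapl1 UMIs (vertical), with small random shifts so that points do not hide each other. Shape marks a Cd8b1 UMI or Cd8a alone, colour a granzyme A or B UMI, and the dotted line the limit of 2 Ccl5 UMIs. All 11 cells with a granzyme UMI lie right of the line, and most cells with a UMI of Ccr7, Lef1 or Dapl1 lie left of it.

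Promoters of 4 genes that differed across the split are shown because their RNA lay almost wholly on 1 side of it: granzymes A and B and Ccl3, on the Ccl5-high side, and Dapl1, on the Ccl5-low side. Each is the 250 bases before the RefSeq transcript start (GRCm38.p6), 5′ to 3′ on the gene's strand, and none overlaps an annotated exon. Capitals mark TGTGGT or its reverse complement ACCACA, the core motif bound by Runx factors, so that both strands were searched.
Gzma, chr13:113100982-113101231, minus strand: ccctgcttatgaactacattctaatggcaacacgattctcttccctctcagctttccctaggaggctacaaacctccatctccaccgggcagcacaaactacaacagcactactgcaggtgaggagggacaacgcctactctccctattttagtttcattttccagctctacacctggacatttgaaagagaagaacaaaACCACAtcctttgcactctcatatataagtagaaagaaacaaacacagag
Gzmb, chr14:56262335-56262584, minus strand: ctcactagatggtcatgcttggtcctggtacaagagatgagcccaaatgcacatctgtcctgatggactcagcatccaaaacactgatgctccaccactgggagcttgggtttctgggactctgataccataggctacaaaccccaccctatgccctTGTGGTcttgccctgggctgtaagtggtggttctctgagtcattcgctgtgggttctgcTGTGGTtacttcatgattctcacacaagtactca
Ccl3, chr11:83649379-83649628, minus strand: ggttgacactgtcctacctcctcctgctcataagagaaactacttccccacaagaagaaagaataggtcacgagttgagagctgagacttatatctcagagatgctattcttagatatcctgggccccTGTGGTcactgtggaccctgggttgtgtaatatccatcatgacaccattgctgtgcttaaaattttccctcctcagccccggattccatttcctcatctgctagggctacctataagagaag
Dapl1, chr2:59484403-59484652, plus strand: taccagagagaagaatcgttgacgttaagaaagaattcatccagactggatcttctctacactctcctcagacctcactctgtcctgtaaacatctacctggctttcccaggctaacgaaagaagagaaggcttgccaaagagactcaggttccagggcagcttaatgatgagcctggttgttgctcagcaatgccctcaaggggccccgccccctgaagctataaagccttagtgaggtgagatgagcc
Gzmb held 2 matches, Gzma and Ccl3 1 each and Dapl1 none. Of 32851 promoter windows of the same length, 14.05% held at least 1. CTTTGA or TCAAAG, the core motif of TCF1 and LEF1, was in none of the 4 windows and in 13.8% of all windows. A match is a description of letters and does not show binding. Promoters of Ccl5, Ccl4 and Ccr7 are named only.

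Over all genes, 586 had at least 30 UMIs in members, of which 102 were at least 2-fold higher in Ccl5-high cells (17.4%) and 13 lower (2.22%), with a median log2 ratio of 0.27. Ccl5-high cells held 102678 of the 159533 member UMIs. A gene seen mainly in them reaches the limit at a lower CPM than one seen mainly in Ccl5-low cells. Ribosomal protein genes made up 32.4% of UMIs in Ccl5-high and 43.0% in Ccl5-low cells. CPM was taken over all UMIs, so this difference enters the ratios of the other genes. Of the 13 lower genes 4 were haemoglobin genes with nearly all UMIs from 1 Ccl5-low cell. Without the haemoglobin-rich cells the counts were 87 and 10, and without the 5 members holding at least 3 cell cycle UMIs they were 63 and 12.

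Several effector genes were counted only in Ccl5-high cells. Of 7 measured cytotoxic genes 6 were at least 2-fold higher in Ccl5-high cells, with a median log2 ratio of 2.81. Gzma, at chromosome 13 from 113093825 to 113100981 on the minus strand, had 99 UMIs in 8 Ccl5-high cells and none in Ccl5-low cells, and was at least 18.3-fold higher. Gzmb, at chromosome 14 from 56258838 to 56262260 on the minus strand, had 61 UMIs in 10 cells and was at least 11.3-fold higher. Their summed count per Ccl5-high cell had a median of 0 and a maximum of 33, so granzyme RNA was concentrated in a minority of these cells. Ccl4 had 125 UMIs in 10 cells, 111 of them in 3, and was at least 23.1-fold higher, and Ccl3 had 38 in 6 cells and was at least 7.01-fold higher. Both lie on chromosome 11, Ccl4 from 83662584 to 83664683 on the plus strand and Ccl3 from 83647844 to 83649355 on the minus strand, near Ccl5 at 83525778 to 83530518. Nkg7 had 206 against 40 UMIs, a ratio of 2.85 (2.02 to 4.11), and Id2 91 against 10, a ratio of 5.04 (2.62 to 10.9).

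Memory and activation genes followed the same side, with 6 of 8 higher, 1 lower and a median log2 ratio of 2.48. Of the 6, Anxa2 and S100a4 reached the UMI limit through the Ccl5-high cells alone. S100a6, a calcium-binding protein of effector and memory cells, had 118 UMIs against 3, a ratio of 21.8 (7.27 to 107). Lgals1, encoding galectin-1, had 200 against 13, a ratio of 8.52 (4.87 to 16.3). Anxa2 and S100a4 had 37 and 36 UMIs in 16 and 15 Ccl5-high cells and none in Ccl5-low cells, at least 6.83-fold and 6.64-fold higher, with 51.7% of S100a4 exon bases in another gene model. Il2rb had 34 UMIs against 4, a ratio of 4.71. Outside the lists Ctla2a, a protease inhibitor gene of activated T cells, had 41 UMIs in 16 cells against none, at least 7.57-fold higher, and 16.3% of its exon bases overlap another gene model. Vim, encoding vimentin, had 90 against 5 (9.97, 4.12 to 31.4) and Tgfb1 30 against 1 (16.6, 2.76 to 678). Lgals1 and Hmgb2 were partly carried by the cells with cell cycle UMIs: without these their log2 ratios were 1.74 and 1.86, against 3.09 and 3.22 with them.

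Naive and central memory genes were on the opposite side, with 3 of 4 at least 2-fold lower in Ccl5-high cells, none higher and a median log2 ratio of -1.22. Klf2 had 44 UMIs against 65 in the fewer Ccl5-low cells, an inverse ratio of 2.67 (1.79 to 4.01). Il7r had 13 against 19, an inverse ratio of 2.64 (1.24 to 5.81), and Tcf7 14 against 16, an inverse ratio of 2.06 (0.944 to 4.57). Below the 30-UMI limit the gaps were wider. Dapl1 had 2 against 27 (24.4, 6.13 to 212) and Lef1 2 against 19 (17.2, 4.14 to 152). Ccr7, with 8 against 15, was less one-sided at 3.39 (1.35 to 9.22). Plac8, a gene of several blood cell types outside the lists, was also lower at 5.24 (2.48 to 12.0). Ly6a, encoding the stem cell antigen Sca-1, was lower at 7.83, and at 2.51 without its top cell.

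T cell identity genes differed little across the split. Trac had a ratio of 1.14, Trbc2 1.36 and B2m 1.05. Cd8b1, a gene of the rule, had 64 UMIs in 22 of 32 Ccl5-high cells and 63 in 17 of 20 Ccl5-low cells, 623 against 1108 CPM. Lat, the adaptor downstream of the T cell receptor, was the only one of 9 measured core genes past 2-fold, at 3.32. Cell cycle UMIs lay on the Ccl5-high side. The 5 members with at least 3 cell cycle UMIs were all Ccl5-high and all held Cd8b1, and their median depth was 7656 UMIs. Of these 5 cells 1 was the cell with 18.5% haemoglobin UMIs. Without thinning 9.62% of members and 3.02% of other T cells had at least 3 cell cycle UMIs, at unequal depth. After thinning 1.96% of members and 1.30% of other T cells had that many. The limit of 3 was kept while thinning lowered the counts of deep cells. The thinned shares therefore cannot show whether the sets differ. No cycling is read from these counts alone.

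**Figure D4:**
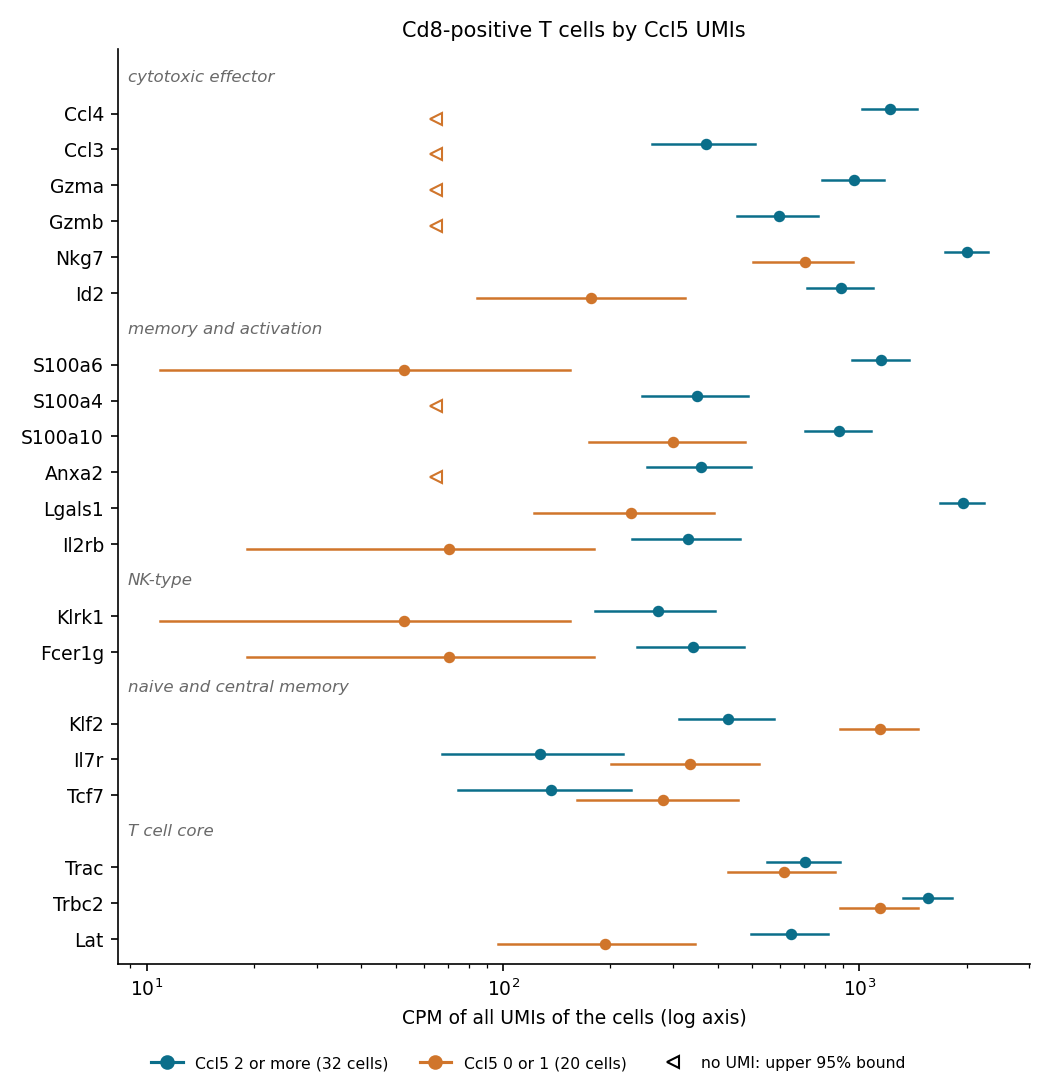
Level of named genes in Cd8-positive T cells with 2 or more Ccl5 UMIs (32 cells) and with 0 or 1 (20 cells). The horizontal axis is CPM of all UMIs of the cells on a log scale, points are summed levels, lines exact Poisson 95% intervals, and open triangles the upper bound where no UMI was counted. Ccl4, Ccl3, Gzma, Gzmb, S100a4 and Anxa2 had no UMI in the low set, while Klf2 and Il7r lie to the right there.

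Members with Cd8a alone differed from those with Cd8b1. This split of 13 against 39 cells was chosen after its values had been seen, so it is a description. Of the 13 cells 6 had a single Cd8a UMI, and a cell without Cd8b1 RNA and 1 whose Cd8b1 RNA was not captured cannot be told apart at this depth (median 2360 UMIs against 3051 with Cd8b1). Of 587 genes with at least 30 UMIs, 55 were at least 2-fold higher with Cd8b1 (9.37%) and 24 lower (4.09%), with a median log2 ratio of 0.07. Cd8b1 cells held 127530 UMIs and Cd8a-alone cells 32003, so genes seen mainly with Cd8b1 reached 30 UMIs at a lower CPM. Both sets are small, and genes of hepatocytes (5 of 6) and haemoglobin (4 of 4) were at least 2-fold higher with Cd8b1, where both haemoglobin-rich cells lie. Without those cells the counts were 54 and 23.

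The Cd8a-alone cells held more NK-type and granule RNA. All 3 measured NK-type genes were at least 2-fold higher in them, with a median log2 ratio of -2.05 for Cd8b1 over Cd8a alone, and 5 of 8 cytotoxic genes, with a median of -1.38. Fcer1g, the Fc receptor gamma adaptor, stood at 1000 CPM (32 UMIs in 10 cells) against 54.9 CPM (7 UMIs in 6 cells), an inverse ratio of 18.2 (7.90 to 48.9). The same gene stood at 314 CPM in endothelial-gated cells. Fcer1g or Tyrobp was seen in 10 of 13 Cd8a-alone and 8 of 39 Cd8b1 cells, and in 66.7% and 2.56% after thinning, against 26.4% of endothelial-gated cells. Granzyme A had 73 UMIs in 5 Cd8a-alone cells against 26 in 3 Cd8b1 cells, an inverse ratio of 11.2 (7.06 to 18.2), and granzyme B 42 in 6 against 19 in 4, an inverse ratio of 8.81 (5.01 to 16.0). Cd7, an immunoglobulin-family receptor of T and NK cells, had an inverse ratio of 5.42 and Klrd1, encoding CD94, 4.15. Of Cd7 exon bases 10.8% lie in another gene model. Ccl5 itself was higher in Cd8a-alone cells, at 2.64 (2.41 to 2.89), while Ccl4 had an inverse ratio of 2.57 that became 0.687 without its top cell.

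Constant-region RNA of the gamma chain (Tcrg-C1, Tcrg-C2 or Tcrg-C4), which alpha-beta T cells can also transcribe, was seen in 8 of 13 Cd8a-alone cells and 7 of 39 Cd8b1 cells, in 44.8% of T cells without Cd8 and in 0.525% of endothelial-gated cells. A Trac UMI was seen in 8 of 13 and 25 of 39. Trdc, the delta constant region, was seen in 3 of 52 members and 15 of 232 other T cells, and 1 cell held 87.5% of the Trdc UMIs of the Cd8a-alone set. T cell core genes differed little, with none of 9 past 2-fold and a median log2 ratio of 0.04. NK markers, a list that includes Fcer1g and Tyrobp, summed to 2031 CPM in Cd8a-alone and 149 CPM in Cd8b1 cells. Their sum holds the same UMIs and is no separate measure, and the part of NK cell RNA in these ratios was not tested.

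Of 4 measured naive and central memory genes 2 were at least 2-fold higher with Cd8b1 and none lower, with a median log2 ratio of 0.87. Of these 2, Il7r reached the UMI limit through the Cd8b1 cells alone. Il7r had 32 UMIs in 15 Cd8b1 cells and none in Cd8a-alone cells, at least 2.68-fold higher, and Klf2 had 102 against 7, a ratio of 3.66 (1.71 to 9.32). Below the limit, Dapl1 had 28 against 1 (7.03, 1.16 to 287) and Ccr7 20 against 3 (1.67, 0.496 to 8.79). Tcf7 (1.25) did not differ by 2-fold. Both splits overlap, with 10 of 13 Cd8a-alone and 22 of 39 Cd8b1 cells Ccl5-high. Among the Ccl5-high cells only, the log2 ratio of Cd8b1 over Cd8a alone was -4.52 for Fcer1g, -3.05 for Gzma and -2.71 for Gzmb. With the limit at 2 Cd8 UMIs it was -5.62, -4.17 and -3.82.

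**Figure D5:**
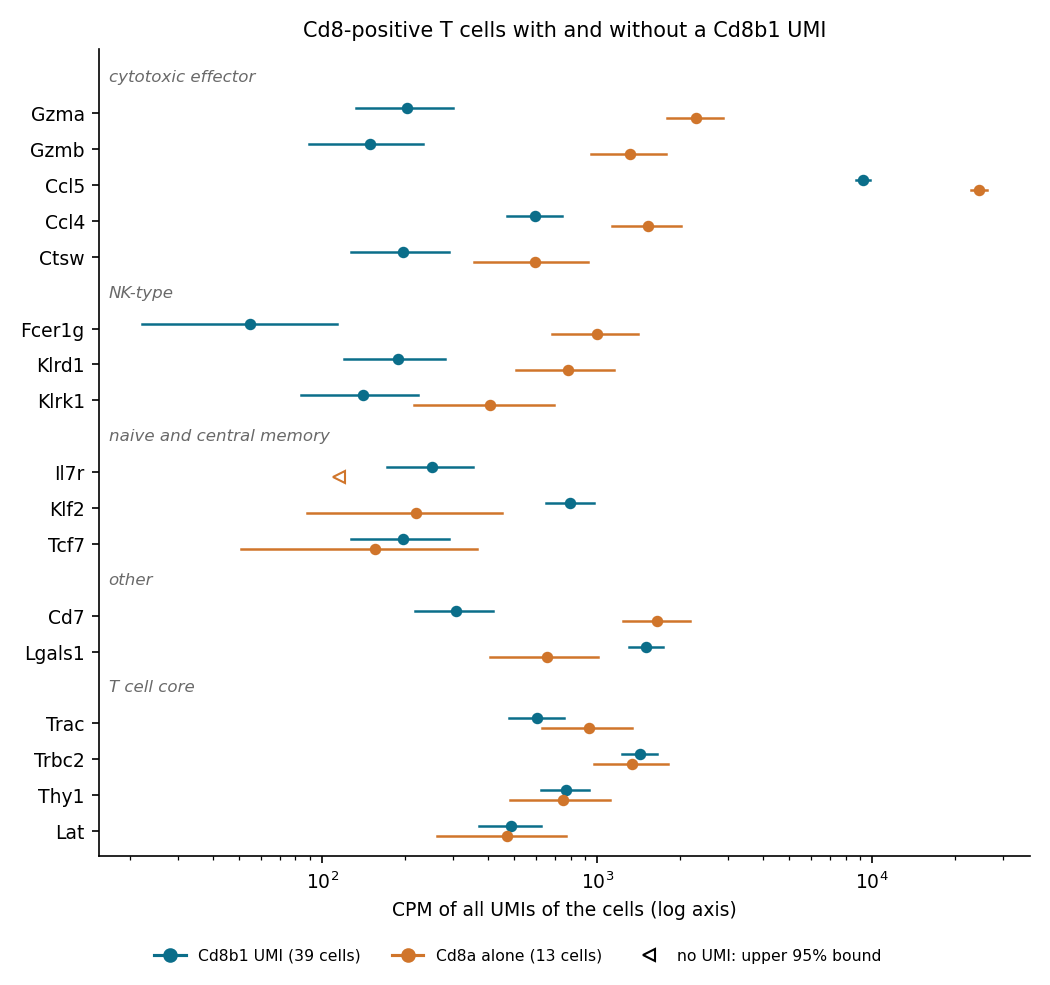
Level of named genes in Cd8-positive T cells with a Cd8b1 UMI (39 cells) and with Cd8a alone (13 cells). The horizontal axis is CPM of all UMIs of the cells on a log scale, points are summed levels, lines exact Poisson 95% intervals for counting error, and the open triangle the upper bound where no UMI was counted. Gzma, Gzmb, Fcer1g and Cd7 lie to the right in Cd8a-alone cells, Klf2 in Cd8b1 cells, and Trbc2, Thy1 and Lat overlap.

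Because the study treated cells with UDP-glucose, the ligand of the receptor P2ry14, purinergic genes were read in members. P2ry14 had no UMI in 52 members and 2 UMIs in 1 of 232 other T cells, so its level in members was below 18.8 CPM, the 3-count limit. Of the 12 genes of this list 2 had at least 30 UMIs, and both were at least 2-fold lower in members. Both reached that number through the T cells without Cd8, where a lower CPM is enough to reach it. Cd38, an ectoenzyme that breaks down NAD, had 4 UMIs against 41, an inverse ratio of 2.96, and Adora2a, an adenosine receptor, 4 against 33, an inverse ratio of 2.38 (0.846 to 9.25). P2rx7, the ATP-gated channel known from resident T cells, had 1 UMI against 24, an inverse ratio of 6.92 (1.13 to 285). Entpd1, encoding CD39, had 5 UMIs against 18, P2rx4 4 against 12, P2ry1 1 against 5, Nt5e 2 against 3, Ada none against 7 and P2ry13 none against 1. Adora2b and P2ry12 had no UMI in either set.

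In the bulk libraries the 5 genes of the rule were near the bottom of the scale. Their summed TPM (transcripts scaled to the same total in every library) was 1.07 ± 0.151 (SD, n = 3) in whole liver and 0.580 ± 0.330 (SD, n = 4) in sorted quiescent stellate cells. It was 1.11 ± 0.569 (SD, n = 3) in control and 0.788 ± 0.232 (SD, n = 3) in UDP-glucose cultures. The ranges of all 4 groups overlapped, from 0.950 to 1.24 TPM in whole liver, 0.244 to 1.002 in quiescent, 0.669 to 1.75 in control and 0.552 to 1.02 in treated libraries. Cd3e was listed at 0 in all 4 quiescent libraries, and Cd8b1 in 2 of 4 quiescent, 2 of 3 whole liver and all 6 cultured libraries. The tables were normalised separately and their depth is unknown, so these levels are a description. The chains did not go together: Cd3d averaged 0.490 TPM in quiescent libraries, where Cd3e was 0. In control cultures Cd3e averaged 0.689 TPM, while Cd3g and Cd8b1 were 0 in all 3. Whether these values come from T cells was not tested. If they do, fewer T cells and less RNA per T cell cannot be told apart in bulk RNA.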

How the data were processed

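The single-cell values deposited by the authors are UMI counts per gene and barcode (28692 gene rows) from a library made with the Chromium 3′ v2 kit, per the labels' protocols. The submitters' processing notes list GRCm38 and mm10 as builds and, as tools, Cell Ranger (no version), kallisto 0.44.0, bcl2fastq 2.19 and DESeq2. The labels do not say whether counting used strand. The deposited bulk values are TPM, from kallisto per the names of the tables.

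UMIs were summed over the cells of a gate and divided by all their UMIs (CPM). Genes with at least 30 UMIs over both gates were called past 2-fold, without a test, since there was 1 library. A gene without a UMI in 1 gate was compared at 3 counts. Cells were thinned at random to 1000 UMIs for shares. No doublet caller was run, so doublets remain. The genes named are the 12 largest and 12 smallest ratios per comparison with at least 50 CPM and 5 cells in the higher gate (leaving out predicted, mitochondrial, ribosomal, receptor variable, hepatocyte and haemoglobin genes), up to 4 abundant members of each of 16 lists and all list members past 2-fold, the purinergic genes and the rule genes. Other genes, such as Gzmk, Gzmm and Eomes below 30 UMIs, were named after their values were seen. The members and lists were chosen with earlier results of these data known. The Cd8b1 split and 10 alternatives were chosen after seeing the data. The calling script was tested on simulated counts. Positions come from the GENCODE annotation of GRCm38 and promoters from RefSeq. Python 3.11.15, numpy 2.4.6, scipy 1.17.1, pandas 2.3.3 and matplotlib 3.10.9 were used. Results for a few genes are not reported here.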

Additional observations from a re-analysis of the deposited data

Results flagged for a closer look

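Among the 4 bulk libraries of quiescent stellate cells, Cd3g, a chain of the T cell receptor complex, was listed at 0.0392 TPM in 1 library and at 0 in the other 3, so that library lay farther from the rest than Dixon's 95% limit allows. With 3 of 4 values at 0, any single value above 0 passes that limit, so the usual chance rate of 1 in 20 groups does not apply here.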

How the results depend on the processing

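No test was made, so the alternatives changed values only; of the alternative values of Cd8-positive against other T cells 1473 kept their direction and moved little, 79 moved and 13 turned, of those of the Ccl5 split 515, 26 and 1, and of those of the Cd8b1 split 421, 37 and 6. Genes at least 2-fold higher and lower in members were 1219 and 1344 with at least 1 UMI in both sets, 8 and 42 with at least 100 UMIs, 25 and 136 after thinning, and 32 and 193 without any excluded-lineage UMI, which left 32 members. With 1 Cd3 UMI as the limit 530 were lower, against Cd4-carrying cells 36 were higher and 45 lower, and against cells without Klrb1c 34 and 155. For the Ccl5 split they were 21 and 7 after thinning and 16 and 5 with at least 100 UMIs, with 63 higher without cells holding cell cycle UMIs. For the Cd8b1 split they were 10 and 2 with at least 100 UMIs, 13 and 9 after thinning, with 15 lower among Ccl5-high cells. The number of genes that reached the UMI limit differed between settings, so these counts have different bases and cannot be compared as shares. The direction turned after thinning for Uox (log2 0.17), Asb2 (0.30), Zrsr2 (0.30), Hnrnpu in the Ccl5 split (-0.015), and Ly6a (-0.48) and Hnrnpa2b1 (-0.48) in the Cd8b1 split. It turned without excluded-lineage UMIs for Hist1h2ap (-3.48) and Itga4 (-0.47). It turned against Cd4-carrying cells for Cd247 (-0.0054), Xcl1 (0.57), Tyrobp (0.77), Klre1 (0.57), Cd38 (0.57) and Adora2a (0.57), (each on 13 or fewer UMIs in those cells), and against cells without Klrb1c for Klrb1c itself (2.54), by construction. Without the 3 members with most of its UMIs Ccl3 turned (-0.45), and Ccl4 moved to 0.19. In the Cd8b1 split it turned with at least 2 Cd8 UMIs for Serpina1e (-0.095), Trf (-0.26) and Serpina1b (-0.51), and among Ccl5-high cells for Ly6a (-0.56). Other causes were not tested. Leaving out 1 bulk library at a time gave summed Cd3 and Cd8 means of 0.439 to 0.692 TPM in quiescent, 0.980 to 1.12 in whole liver, 0.783 to 1.32 in control and 0.674 to 0.907 in treated libraries. No paired analysis was possible because the single-cell library has no replicate and the bulk values come from no test. Depth limits what a single cell shows: most genes gave 0 or 1 UMI per cell, and a share within the range of the gates that should lack a gene is not read as expression.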
